A study of Drosophila melanogaster with 36 samples.

Results

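Heads of Control flies that had aged for 14 days at 29 °C were compared with heads of Control flies aged for 2 days at the same temperature. The comparison was chosen by the genotype and day in the sample titles and took 6 of the 36 arrays of a study of Atrophin, a fly transcriptional corepressor. The Control genotype combined GMR-Gal4, a driver active in the eye, with a Gal80 repressor, and no Atrophin transgene is listed for it. The other lines are labelled Atro, A66QC and A75QN and carry a wild-type or polyglutamine-expanded Atrophin under the same driver. All flies developed at 18 °C, were collected within 48 h of eclosion and were then sacrificed (day 0) or moved to 29 °C for 2 or 14 days. Each RNA came from 20 heads, with 3 arrays in each group. The labels give no sex and do not tell whether the replicates came from separate flies or vials, so the p-values cover the spread among these RNA samples, which may be technical. Every Control head carried the driver and the repressor, and a line without the driver was not analysed here. How active the driver was at 18 °C or at 29 °C was not tested. Age and time spent at 29 °C are the same variable in these flies.

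Flies kept warm run through adult life faster than flies kept cool. Ageing flies are known for rising transcripts of innate immunity, which the Toll and Imd pathways control through the NF-κB factors Dorsal, Dif and Relish, and for a decline of transcripts of mitochondrial respiration. A fly head holds the compound eyes, the brain and its glia, and also fat body, muscle, trachea, blood cells and epidermis. In such a mixed sample, fewer cells of a type and less RNA per cell cannot be told apart. The first days after eclosion also include the hardening of the cuticle, and day 2 served here as the starting point after most of that time.

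The values were log2 signals of 18769 probe sets for fly genes. Array SDs over these probe sets lay between 1.58 and 1.67 on day 14 and between 1.47 and 1.58 on day 2. Replicate 2 of day 2 was the narrowest and replicate 2 of day 14 the widest of the 6 arrays. Replicates correlated with r of 0.9979 to 0.9985 on day 2 and 0.9971 to 0.9979 on day 14, across probe sets, which are not independent. Markers of eye, neurons and glia were far above the array medians on all 6 arrays, among them the light-activated channel trp, the neuronal RNA-binding protein elav and the glial factor repo. The 3′ minus 5′ signal of Gapdh, a measure of RNA integrity, was 1.82 ± 0.056 on day 2 and 1.81 ± 0.071 on day 14 (SD, n = 3 each). The same measure was 1.76 ± 0.033 and 1.84 ± 0.053 for actin and 1.63 ± 0.11 and 1.53 ± 0.02 for eIF4a. The bacterial poly-A spike-ins, which hold no fly RNA, averaged 10.36 ± 0.18 on day 2 and 10.65 ± 0.16 on day 14. They were lowest on replicate 2 of day 2 (10.17) and highest on replicate 2 of day 14 (10.83), the arrays of narrowest and widest spread. The part of these measures in the results was not tested.

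At an adjusted p under 0.05 in limma, 1934 probe sets (10.3% of those tested) were higher on day 14 and 594 (3.16%) were lower. With 1 representative probe set for each of 11982 genes, 1590 genes (13.3%) were higher and 433 (3.61%) lower. The median change was 0.31 on the log2 scale among probe sets called higher and −0.25 among those called lower. A change of at least 1 was reached by 44 probe sets called higher and 26 called lower. The majority of higher calls depended on how the arrays were scaled and on which were kept. Higher calls made up 76.5% of all calls with the deposited values, 48.8% after quantile normalization, 47.3% after cyclic loess normalization and 52.5% without the arrays of outlying spread. On the deposited values the median change ran from −0.07 in the dimmest of 10 equal bins of probe sets to 0.15 in the brightest. After quantile normalization it was −0.0012 and −0.0027 in the same bins. Both normalizations make the arrays alike by design, so medians near 0 were built in. They would also remove a real shift of many genes, and so cannot tell which split of calls is right. Counts are therefore also given for genes called in the same direction in all 4 of these treatments, referred to as held: 692 genes (5.78%) higher and 335 (2.8%) lower. The last treatment leaves out replicate 2 of both Control days. It gave 1631 calls in all, beside 2528 with the deposited values. A call can thus fail to hold through fewer arrays as well as through scaling.

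**Figure D1:**
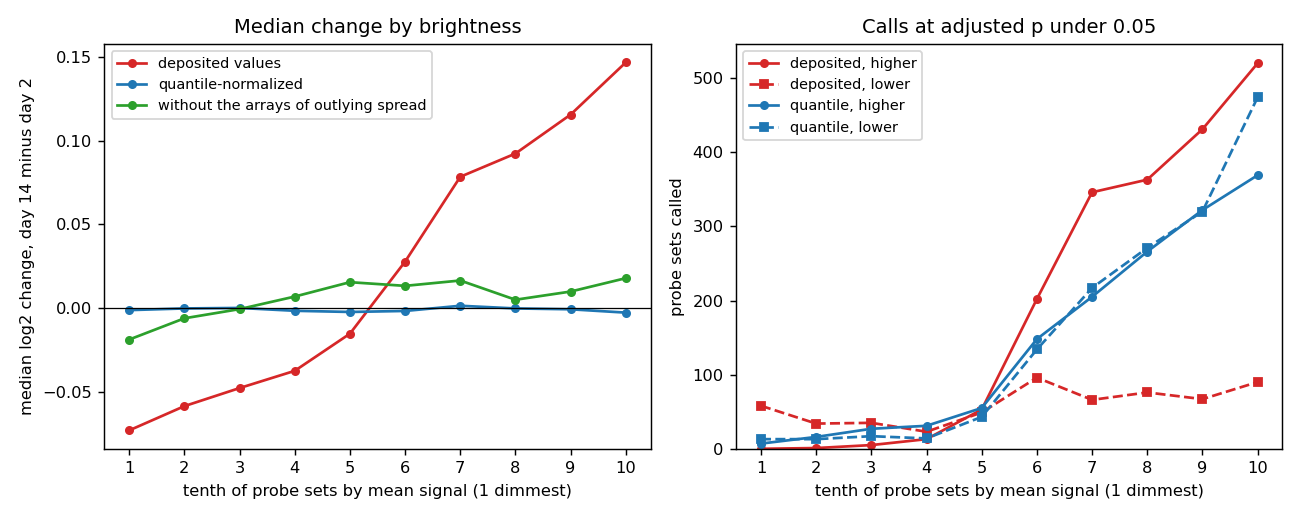
Left: median log2 change from day 2 to day 14 (y axis) in 10 bins of the 18769 probe sets ordered by mean signal (x axis), for the deposited values, after quantile normalization and without the arrays of outlying spread. Right: probe sets called higher (circles) or lower (squares) in each bin. The deposited values drift from −0.07 to 0.15 with brightness, and the other lines stay near 0. Quantile normalization gives all arrays the same distribution, so its line lies near 0 by design.

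The genes with the largest rises had varied roles. CG34227 rose most, from 10.27, 10.15 and 10.40 on the day 2 arrays to 12.25, 12.49 and 12.43 on day 14, a log2 change of 2.11 ± 0.27 (SE, adjusted p = 1.05e-06). The adult cuticle protein Acp65Aa stood at 6.98, 6.97 and 6.97 on day 2 and at 8.78, 8.77 and 8.67 on day 14, a change of 1.76 ± 0.08. dmGlut, a glutamate transporter, went from 8.22, 8.07 and 8.24 to 9.82, 10.00 and 9.89, a change of 1.73 ± 0.07 (adjusted p = 4.11e-18). In each of these the groups lay far apart, with gaps many times the spread within a day. Obp56a, an odorant-binding protein, rose by 1.71 ± 0.16 from 9.09, 8.07 and 9.01 to 10.50, 10.51 and 10.29. Its low day 2 value came from the array of narrow spread, and without the arrays of outlying spread its change was 1.35. Arc1, a capsid-forming protein of neurons and other tissues that descends from a retroelement, rose by 1.26 ± 0.15 from 10.55, 10.01 and 10.63 to 11.70, 11.72 and 11.55. Its second single-gene probe set rose by 1.05 ± 0.25.

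The other large rises were those of the noncoding RNA lncRNA:CR32368 (1.71 ± 0.30), CG4269 (1.47 ± 0.28), CG15784 (1.44 ± 0.15), the tetraspanin Tsp42Ed (1.43 ± 0.12), the lipase-related CG5966 (1.34 ± 0.26) and the serpin Spn47C (1.28 ± 0.10). lncRNA:CR32368 was near background on day 2, so its fold is uncertain. All of these held. CG4757 rose by 1.83 ± 0.60 (adjusted p = 0.0384), but that call was lost without any 1 of the 6 arrays and under a trended prior. Its day 0 arrays read 8.12, 11.03 and 8.04, so that the gene varied widely between samples of a group.

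The largest falls were steeper than the largest rises. CG11458 fell by 4.10 ± 0.13 on the log2 scale, from 10.42, 10.31 and 10.43 to 6.27, 6.29 and 6.30. Cpr72Ec, a cuticle protein of the corneal lens, stood at 12.61, 12.40 and 12.52 on day 2 and at 8.77, 8.51 and 8.84 on day 14, a change of −3.80 ± 0.12 (adjusted p = 3.26e-21). CG7214 went from 9.37, 8.88 and 9.17 to 6.00, 6.01 and 6.03. The day 14 values of CG11458 and CG7214 lay under the highest array median, 6.403, which is used here as the limit for near background. Detection above background was not tested. The size of these falls may be bounded by such a floor. CG7203 dropped from 12.59, 12.36 and 12.49 to 9.87, 9.88 and 9.23. Nplp3, a neuropeptide-like precursor, dropped from 12.95, 12.73 and 12.88 to 10.69, 10.59 and 10.28, and the cuticle protein Cpr49Ae from 9.94, 9.75 and 9.96 to 7.61, 7.86 and 7.60. No array of day 14 came near the day 2 range in any of these genes.

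Further falls among the 12 largest were those of CG4842 (−1.89 ± 0.09), CG4000 (−1.84 ± 0.11), CG8736 (−1.81 ± 0.20), CG3348 (−1.71 ± 0.12), TpnC41C, a muscle troponin C (−1.63 ± 0.12), and CG40298 (−1.61 ± 0.13). All 12 falls held. Several of these genes had also moved between day 0 and day 2, a comparison that shares the day 2 arrays. CG7214 read 12.48, 12.74 and 12.66 on day 0, CG8736 10.41, 11.13 and 11.02, and CG4000 12.64, 12.91 and 12.78. In these, day 2 lay between day 0 and day 14. Cpr72Ec went the other way first, with 10.89, 11.27 and 11.43 on day 0, and peaked on day 2. Spn47C, CG34227 and Acp65Aa changed by −0.19, 0.16 and −0.15 between day 0 and day 2, none of which was called.

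**Figure D2:**
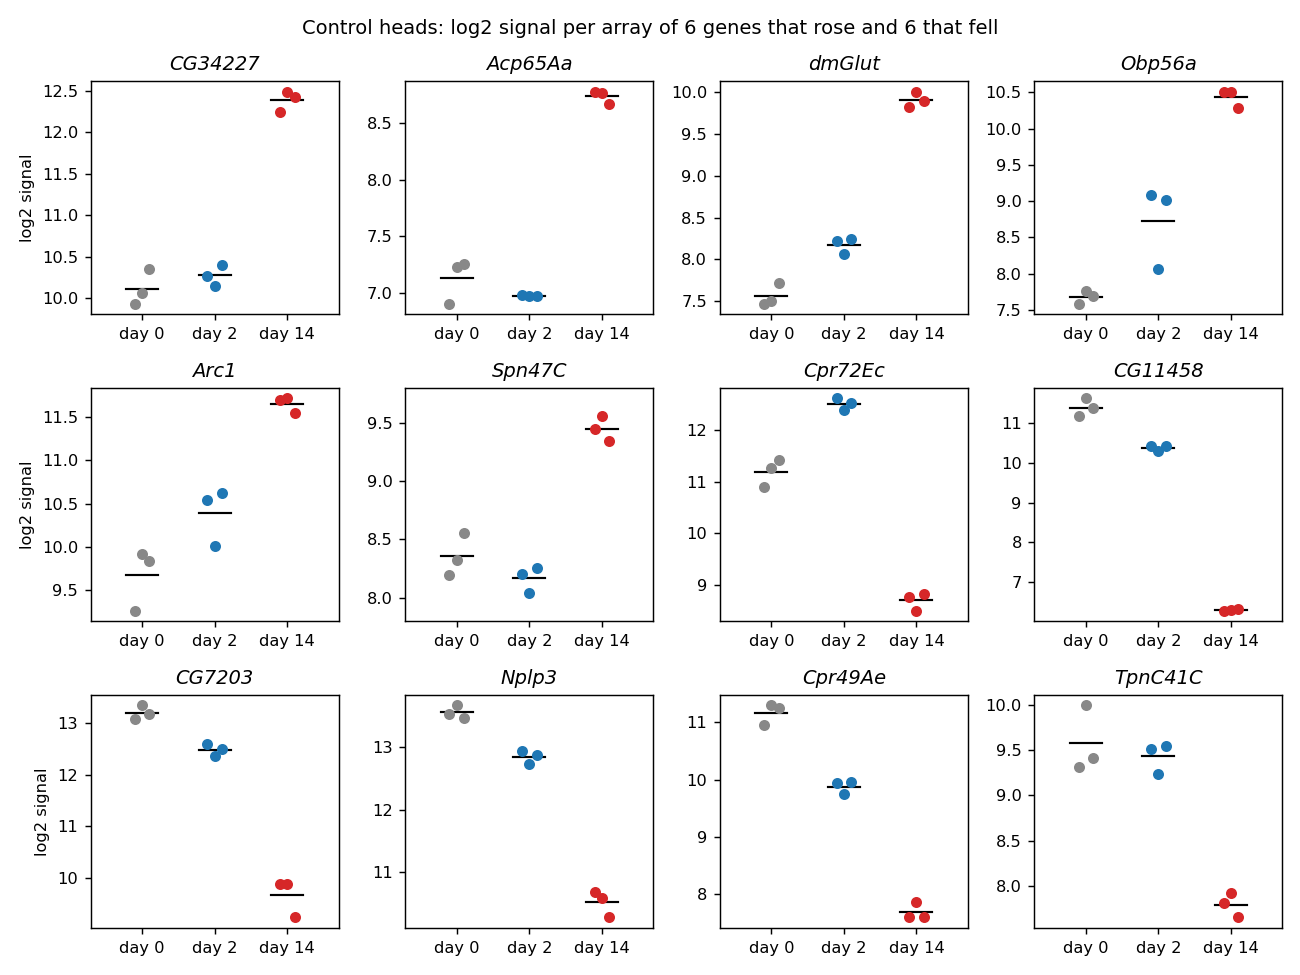
Log2 signal (y axis) of each Control array on days 0, 2 and 14 (x axis) for 6 genes that rose and 6 that fell from day 2 to day 14. Points are the 3 arrays of a day and horizontal lines their means. The axes do not start at 0 and differ between genes. In each panel the day 14 arrays lie outside the range of the day 2 arrays.

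Of 45 measured genes of Toll and Imd recognition and signalling, 18 (40%) were called higher and none lower by limma, and 12 of the 18 held. At an unadjusted p under 0.05, 2 were lower. Among all genes 13.3% were higher and 3.61% lower. The list's median change was 0.18 with the deposited values, beside 0.01 for all genes and 0.08 for the brighter 7658. It was 0.07 after quantile normalization, 0.08 after cyclic loess and 0.06 without the arrays of outlying spread. Under each of the 2 normalizations 15 members were called higher and 1 lower. PGRP-LF, a peptidoglycan recognition protein that dampens Imd signalling, went from 7.36, 7.27 and 7.31 to 7.96, 7.97 and 7.99, a change of 0.66 ± 0.08 (adjusted p = 3.31e-07). Tab2, an adaptor of the Imd kinase complex, rose by 0.55 ± 0.08. The Toll-pathway factor dl (Dorsal) rose by 0.48 ± 0.08, from 8.08, 7.96 and 8.18 to 8.49, 8.59 and 8.57. A second dl probe set changed by 0.25 ± 0.10 and was not called. GNBP2 rose by 0.43 ± 0.07 and its relative GNBP3, a fungal sensor upstream of Toll, by 0.44 ± 0.09. The serine protease grass, also upstream of Toll, rose by 0.38 ± 0.07. Chosen after their values were seen, Rel (Relish, the Imd pathway's NF-κB) rose by 0.58 ± 0.12, cact, the inhibitor of Dorsal, by 0.44 ± 0.10, and pirk, an inhibitor of Imd, by 0.41 ± 0.09. A second cact probe set, at 8.67 on day 2 and 8.69 on day 14, changed by 0.02 ± 0.09 and was not called. Activators and inhibitors of both pathways were thus among the genes that rose, the Toll inhibitor cact in its brightest probe set only.

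Among 24 antimicrobial peptides and other effectors, 7 (29.2%) were higher and none lower, also at an unadjusted p under 0.05 in limma, and 6 of the 7 held. The list's median change was 0.34 with the deposited values. It was 0.23 after quantile normalization and after cyclic loess, and 0.33 without the arrays of outlying spread. Near background on both days were 8 members. The Bomanins, short peptides secreted on Toll activation, gave 4 of the calls. BomS5 rose by 1.19 ± 0.24, from 10.94, 10.83 and 11.09 to 11.96, 12.52 and 11.95. BomT2 rose by 0.82 ± 0.14, BomBc2 by 0.83 ± 0.15 and BomS6 by 0.61 ± 0.12. Drsl4, a relative of drosomycin, went from 10.38, 10.15 and 10.69 to 11.50, 11.51 and 11.12, a change of 0.97 ± 0.15 (adjusted p = 1.56e-05). Near-identical family members may share hybridisation, which was not tested.

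Some classical peptides had large changes that did not pass. Chosen after their values were seen, Drs (drosomycin, an antifungal peptide under Toll) read 10.13, 9.94 and 10.48 on day 2 and 11.40, 12.80 and 11.96 on day 14. Its change of 1.87 ± 0.76 had an adjusted p of 0.107, although the groups did not overlap. In a fit of the 6 Control arrays alone, limma's adjusted p of Drs was 0.000805 and that of Mtk (metchnikowin) 0.000579. Mtk went from 11.68, 11.48 and 11.33 to 12.08, 12.20 and 12.40, a change of 0.73 ± 0.70 in the model of all arrays. The spread that this model took from all groups included arrays such as Control day 0, where Drs read 8.49, 12.27 and 9.18 and Mtk 7.39, 10.97 and 7.45. DptB, a diptericin under Imd, overlapped between the days, with 10.72, 10.27 and 10.56 on day 2 and 11.44, 10.53 and 11.26 on day 14.

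**Figure D3:**
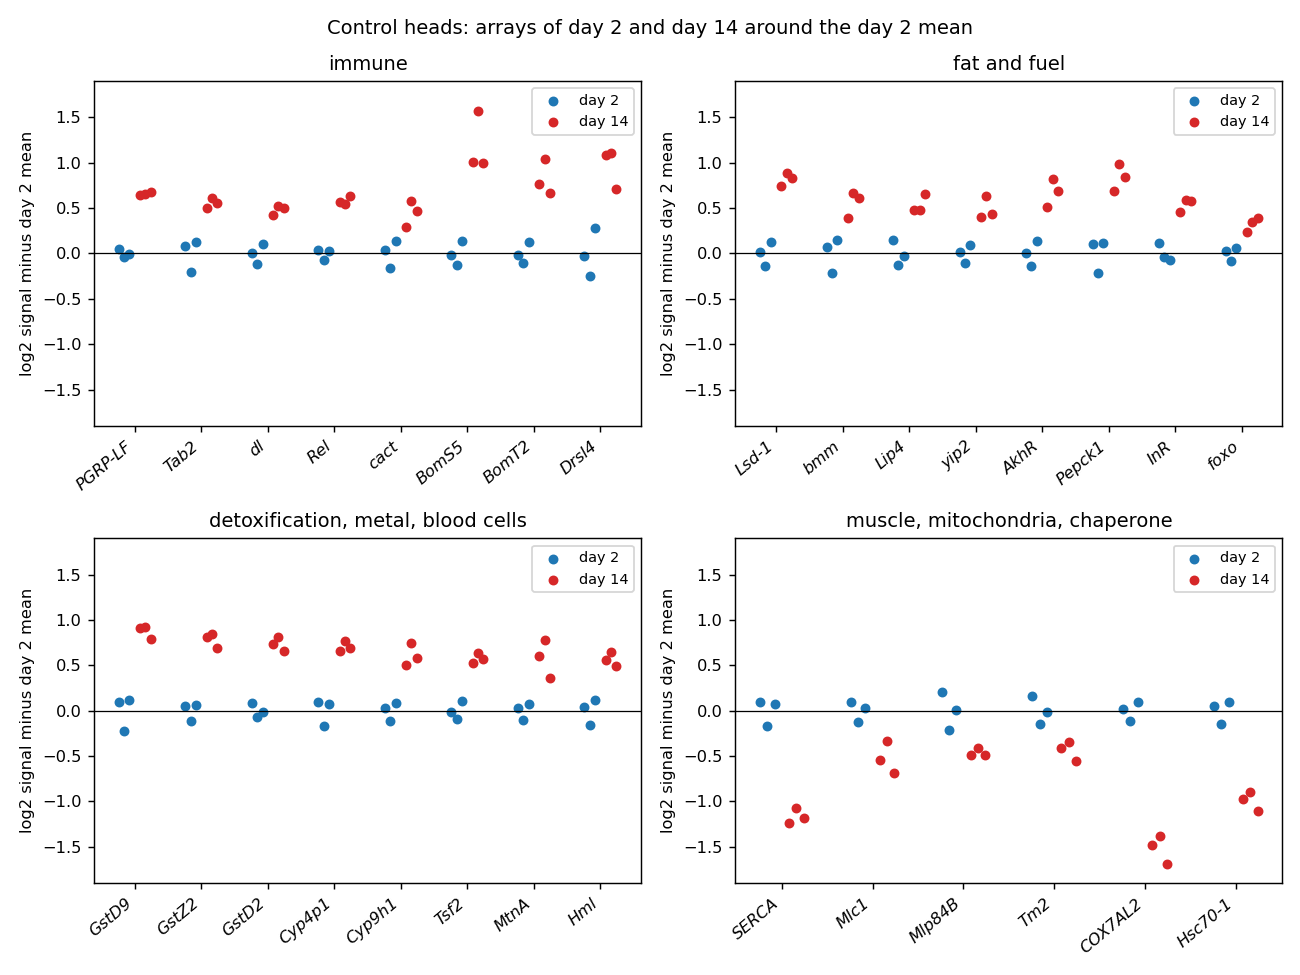
Log2 signal of each Control array minus the gene's day 2 mean (y axis) for genes of 4 groups (x axis). Blue points are the 3 arrays of day 2 and red points the 3 of day 14. All day 14 points lie above the day 2 points of the same gene in the first 3 panels and below them in the last.

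Of 32 genes of fat storage and fatty acid metabolism, 16 (50%) were higher and none lower in limma, with 1 lower at an unadjusted p under 0.05. The other 16 were not called. Among all genes 13.3% were higher and 3.61% lower. Of the higher ones in the list 10 held, and the list's median change was 0.30 with the deposited values. It was 0.15 after quantile normalization, 0.14 after cyclic loess and 0.16 without the arrays of outlying spread. After quantile normalization 15 were higher and 1 lower. Lsd-1, the fly perilipin that coats lipid droplets, went from 10.78, 10.62 and 10.90 to 11.51, 11.66 and 11.60, a change of 0.82 ± 0.09 (adjusted p = 1.52e-07). bmm (brummer), the triglyceride lipase of those droplets, rose by 0.56 ± 0.09 from 9.26, 8.97 and 9.33 to 9.58, 9.85 and 9.80. Lip4, another lipase, rose by 0.54 ± 0.09. Enzymes of mitochondrial fatty acid oxidation rose by less, with 0.49 ± 0.08 for yip2, 0.46 ± 0.07 for scu and 0.41 ± 0.06 for Arc42. Both the droplet coat and the lipase that acts on it were therefore higher on day 14. Of 17 fat body, lipoprotein and storage protein genes, 2 (11.8%) were higher, close to the share among all genes, and 1 held. The list's median change was 0.15 with the deposited values and 0.02 after quantile normalization, and array means of that list ranged from 9.18 to 9.43 on day 2 and from 9.29 to 9.50 on day 14. Whether the amount of fat body in the samples had a part in the rise was not tested.

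Fuel and insulin signalling changed in several components. In the list of insulin, FOXO and TOR signalling, 7 of 25 genes (28%) were higher and 1 was lower, and 5 and 1 of these held. Among all genes 13.3% were higher and 3.61% lower. The receptor InR rose by 0.54 ± 0.10, from 8.04, 7.88 and 7.85 to 8.38, 8.51 and 8.50. The transcription factor foxo rose by 0.32 ± 0.07 and the kinase Akt by 0.46 ± 0.10. The call that fell was Ilp5, an insulin-like peptide of the brain's insulin-producing cells, from 8.42, 8.27 and 8.48 to 7.88, 8.00 and 7.68 (−0.54 ± 0.11, adjusted p = 0.000781). AkhR, receptor of the hormone that mobilises fat and sugar, rose by 0.67 ± 0.11 and its second probe set by 0.47 ± 0.07. Pepck1, an enzyme of gluconeogenesis, rose by 0.84 ± 0.16. Glyp, the phosphorylase that breaks down glycogen, fell by 0.40 ± 0.10, from 10.82, 10.61 and 10.80 to 10.35, 10.42 and 10.25. Of 21 genes of glycolysis and storage sugars, 1 was called higher and 1 lower, with 1 higher and 8 lower after quantile normalization, 1 and 9 after cyclic loess, and 1 and 4 without the arrays of outlying spread.

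Of 36 glutathione S-transferases, 18 (50%) were higher and 2 (5.56%) lower, and 9 (25%) and 2 (5.56%) held. Among all genes 13.3% were higher and 3.61% lower, and 5.78% and 2.8% held. GstD9 went from 10.18, 9.86 and 10.20 to 11.00, 11.01 and 10.87, a change of 0.88 ± 0.09. GstZ2 rose by 0.78 ± 0.08 and GstD2 by 0.74 ± 0.11. Of 85 cytochrome P450s, which oxidise foreign compounds, hormones and fatty acids, 30 (35.3%) were higher and 3 lower, and 19 and 2 held. Cyp4p1 rose by 0.71 ± 0.10, Cyp9h1 by 0.61 ± 0.08 and Cyp6a13 by 0.58 ± 0.09, with no overlap between the days. The regulator cnc, the fly Nrf2, rose by 0.34 ± 0.07 in its brightest probe set, while its second, near-background probe set was not called. The list of antioxidant enzymes was closer to all genes, with 4 of 22 higher and 1 lower, and its median change of 0.06 turned to −0.03 after quantile normalization. Heat shock proteins and chaperones gave few calls, with 2 (7.69%) of 26 higher and 1 (3.85%) lower. Neither higher call held. None was higher in limma after quantile normalization, after cyclic loess or without the arrays of outlying spread, and 5, 8 and 2 were lower. At an unadjusted p under 0.05, 0, 0 and 2 were higher under these settings. The lower one on the deposited values was the chaperone Hsc70-1, from 8.85, 8.65 and 8.89 to 7.83, 7.90 and 7.69 (−0.99 ± 0.08). A second Hsc70-1 probe set fell by 0.98 on the log2 scale and another, dimmer one changed by −0.10 and was not called.

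Of 21 metal-handling genes, 8 (38.1%) were higher and none lower in limma, beside 13.3% and 3.61% among all genes. At an unadjusted p under 0.05, 1 was lower. Of the 8, 6 held. Tsf2, an iron-binding transferrin of epithelial junctions, rose by 0.57 ± 0.06 (adjusted p = 1.71e-08). The copper-binding metallothionein MtnA went from 13.04, 12.92 and 13.09 to 13.62, 13.80 and 13.38, a change of 0.58 ± 0.09. Its activator MTF-1 rose by 0.47 ± 0.08. The secreted transferrin Tsf1 rose by 0.74 ± 0.15 in its brightest probe set and by 1.44 ± 0.25 in another, while one at background was not called.

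Of 21 blood cell markers, 11 (52.4%) were higher and none lower in limma, beside 13.3% and 3.61% among all genes. At an unadjusted p under 0.05, 2 were lower. Of the 11, 6 held, and the list's median change was 0.29 with the deposited values. It was 0.16 after quantile normalization, 0.17 after cyclic loess and 0.19 without the arrays of outlying spread. Hml (hemolectin), a clotting protein of plasmatocytes, went from 9.11, 8.91 and 9.19 to 9.63, 9.72 and 9.56 (0.57 ± 0.08). The prophenoloxidases of crystal cells, PPO1 and PPO2, rose by 0.60 ± 0.12 and 0.55 ± 0.10, the complement-like Tep4 by 0.51 ± 0.09 and the scavenger receptor Sr-CI by 0.37 ± 0.08. After quantile or cyclic loess normalization 9 were higher and 3 lower, and without the arrays of outlying spread 6 were higher and 3 lower. The array means of the list ranged from 8.28 to 8.44 on day 2 and from 8.54 to 8.64 on day 14. The immune lists moved in the same direction, and the part of blood cell number in them was not tested.

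Eye genes moved in both directions. Of 40 genes of phototransduction and the rhabdomere, the light-sensing membrane of photoreceptors, 8 (20%) were higher and 4 (10%) lower, and 4 of each held. Among all genes 13.3% were higher and 3.61% lower, and among the brighter 7658 genes 1533 were higher and 326 lower. The list's median change was 0.01 with the deposited values but −0.10 after quantile normalization, when 5 members were higher and 16 lower. The retinoid-binding protein pinta went from 7.73, 7.46 and 7.69 to 8.41, 8.43 and 8.23 (0.73 ± 0.07), and santa-maria, a carotenoid uptake receptor, rose by 0.46 ± 0.08. Both had fallen between day 0 and day 2, with changes of −0.64 and −0.78. eys (spacemaker), which keeps the rhabdomeres apart, fell by 0.62 ± 0.11, and the sodium-calcium exchanger Calx by 0.46 ± 0.11. Of 4 eys probe sets only the brightest was called, and the other 3 were close to or under the near-background limit. Pdh, the retinol dehydrogenase of the eye's pigment cells, fell by 0.27 ± 0.09 with overlapping arrays (adjusted p = 0.049), a call lost without any 1 of 4 of the 6 arrays.

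Of 19 genes of eye pigment synthesis and transport, 4 (21.1%) were higher and 3 (15.8%) lower, and 3 of each held. The transporter st (scarlet), which loads brown pigment precursors, rose by 0.51 ± 0.06, from 6.22, 6.26 and 6.22, near background, to 6.66, 6.87 and 6.69. The pteridine enzyme se (sepia) fell by 0.84 ± 0.15, the pigment granule GTPase Rab32 by 0.41 ± 0.09 and the pteridine transporter bw (brown) by 0.38 ± 0.10. The call of bw was lost without replicate 3 of day 14, and its dimmer probe set was not called. Of 4 corneal lens genes, Cpr72Ec and retinin fell, Cpr66D rose by 0.26 ± 0.05 from near background and Cpr64Ad was not called. retinin went from 13.02, 12.80 and 13.01 to 12.46, 12.65 and 12.27 (−0.48 ± 0.09), a small change beside that of Cpr72Ec.

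Genes of neurons and synapses gave 6 (9.52%) higher and 4 (6.35%) lower of 63, beside 13.3% and 3.61% among all genes. In each direction 4 held. After quantile normalization the lower calls were 19 and the higher 4, and the median change went from −0.02 to −0.09. The acetylcholine receptor subunit nAChRbeta3 rose by 0.52 ± 0.08, from 8.69, 8.60 and 8.70 to 9.20, 9.24 and 9.11. Ace, the acetylcholinesterase, rose by 0.40 ± 0.09, the scaffold dlg1 by 0.55 ± 0.09 and the RNA-binding protein Rbp9 by 0.69 ± 0.13. The potassium channel Shab fell by 0.25 ± 0.05. Of the 4 dlg1 probe sets, 2 rose and 2 were not called, and the dimmer probe sets of Rbp9 and Shab were not called. Glial markers gave 5 (20%) higher and 1 (4%) lower of 25, of which 1 each held. The balance turned to 3 higher and 6 lower after quantile normalization, 3 and 7 after cyclic loess, and 1 and 4 without the arrays of outlying spread. Their median change was 0.06 with the deposited values and −0.02 after quantile normalization. The held calls were those of Gli (gliotactin), which rose by 0.58 ± 0.10, and bdl (borderless), which fell by 0.53 ± 0.09.

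Neuropeptides and their receptors gave 8 (20.5%) higher and 4 (10.3%) lower of 39, beside 13.3% and 3.61% among all genes. In each direction 4 held. The list gave 5 higher and 9 lower after quantile normalization, 5 and 7 after cyclic loess, and 4 and 7 without the arrays of outlying spread. Crz (corazonin), a peptide of the stress response, went from 8.30, 8.13 and 8.28 to 9.34, 9.44 and 9.26, a change of 1.11 ± 0.07 (adjusted p = 7.3e-13). It had stood at 8.25, 8.11 and 8.23 on day 0. Mip rose by 0.45 ± 0.06 and CCHa2, a nutrient-responsive peptide, by 0.58 ± 0.09. SIFa, a peptide of a few large brain neurons, fell by 0.62 ± 0.09, from 7.88, 7.70 and 7.91 to 7.21, 7.21 and 7.20. NPFR, the neuropeptide F receptor, fell by 0.42 ± 0.06 and reached the near-background range on 2 of the 3 day 14 arrays. In the clock list, vri rose by 0.57 ± 0.11 and per fell by 0.24 ± 0.06, and the labels do not give the hour of collection. The call of per was lost without replicate 1 of day 2.

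Of 166 chemoreceptors, 154 were near background on both days, none was called higher in limma, also at an unadjusted p under 0.05, and 6 (3.61%) were lower, the same share as among all genes. Of the 6, 3 held. At an unadjusted p under 0.05, 31 were lower with the deposited values, and 3 were higher and 10 lower after quantile normalization. Ir68a, an ionotropic receptor of moisture sensing, fell by 1.21 ± 0.09, from 8.35, 8.14 and 8.14 to 6.92, 7.07 and 7.01. It had risen by 0.56 between day 0 and day 2. Or13a was called with a change of −0.32 ± 0.05, but its 6 arrays all read under the near-background limit, so this is not counted here as a fall of the gene. Odorant-binding proteins gave 6 (12%) higher and 3 (6%) lower of 50, beside 13.3% and 3.61% among all genes, and 2 and 3 held. The balance turned with the scaling, to 2 higher and 12 lower after quantile normalization, 3 and 13 after cyclic loess, and 2 and 7 without the arrays of outlying spread. Beside Obp56a, Obp19c rose by 0.34 ± 0.05.

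Of 28 muscle markers, 10 (35.7%) were lower and all 10 held, 2 (7.14%) were higher and neither held, and 16 were not called. Among all genes 3.61% were lower and 13.3% higher. The median change was −0.11 with the deposited values and −0.24 after quantile normalization. SERCA, the calcium pump of the sarcoplasmic reticulum, went from 11.79, 11.53 and 11.77 to 10.46, 10.63 and 10.52 (−1.16 ± 0.10, adjusted p = 2.39e-10). A second SERCA probe set fell by 1.12 on the log2 scale and a dimmer one changed by −0.22 and was not called. The myosin light chain Mlc1 fell by 0.52 ± 0.10, the muscle LIM protein Mlp84B by 0.46 ± 0.10 and the tropomyosin Tm2 by 0.44 ± 0.10. These had already fallen between day 0 and day 2, with changes of −1.24, −1.14 and −1.31, and −0.95 for SERCA. Array means of the muscle list were 9.92 to 10.24 on day 0, 9.31 to 9.52 on day 2 and 9.17 to 9.32 on day 14. Of 110 cuticle genes, 72 near background on both days, 12 were lower and 6 higher, with 7 and 4 held. Cpr100A fell by 1.21 ± 0.17 and had changed by −1.86 between day 0 and day 2. Acp65Aa, above, was the exception of large size. Of 17 tracheal markers, 1 was called lower and it did not hold.

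The mitochondrial and ribosomal lists gave counts that depended on the scaling. Of 78 genes of oxidative phosphorylation, 3 (3.85%) were lower and 2 (2.56%) higher with the deposited values, beside 3.61% and 13.3% among all genes. The lower calls numbered 52 after quantile normalization, 53 after cyclic loess and 30 without the arrays of outlying spread, and the median change went from −0.11 to −0.26, −0.28 and −0.24. COX7AL2, a cytochrome oxidase subunit-like gene, fell under every treatment, from 10.43, 10.29 and 10.50 to 8.92, 9.03 and 8.72 (−1.52 ± 0.11). The complex I subunits ND-B18 and ND-19 fell by 0.26 ± 0.08 and 0.28 ± 0.09, and each call was lost without any 1 of 3 of the arrays. UQCR-11, a complex III subunit gene, rose by 0.47 ± 0.06 from near background. Mitochondrial ribosomal proteins gave 4 of 69 lower and none higher on the deposited values (1 higher at an unadjusted p under 0.05 in limma), 32 lower after quantile normalization, 34 after cyclic loess and 8 without the arrays of outlying spread. mRpS9 fell by 0.28 ± 0.08, a call lost without any 1 of 3 arrays.

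Of 42 cytosolic ribosomal proteins, 17 (40.5%) were higher on the deposited values, led by RpL37-1 (0.32 ± 0.08), and none held: after quantile normalization and without the arrays of outlying spread, none of the 42 was called in limma. At an unadjusted p under 0.05, 1 was higher and 1 lower in the first and 3 were higher in the second. Their median change was 0.23, 0.02 and 0.11 in the 3 treatments. RpL37-1 lost its call without replicate 2 of day 2 or replicate 2 of day 14, the arrays of outlying spread. The 4 higher calls among 40 proteasome genes and the 3 among 28 ribosome biogenesis genes did not hold either. Autophagy genes gave 6 (21.4%) higher and 1 (3.57%) lower of 28, beside 13.3% and 3.61% among all genes. Of these, 2 (7.14% of the list) and 1 (3.57%) held, close to the 5.78% and 2.8% among all genes. The held rises were those of Mitf, which governs lysosomal genes (0.48 ± 0.06), and ref(2)P, the fly p62 that carries ubiquitinated cargo (0.43 ± 0.08).

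**Figure D4:**
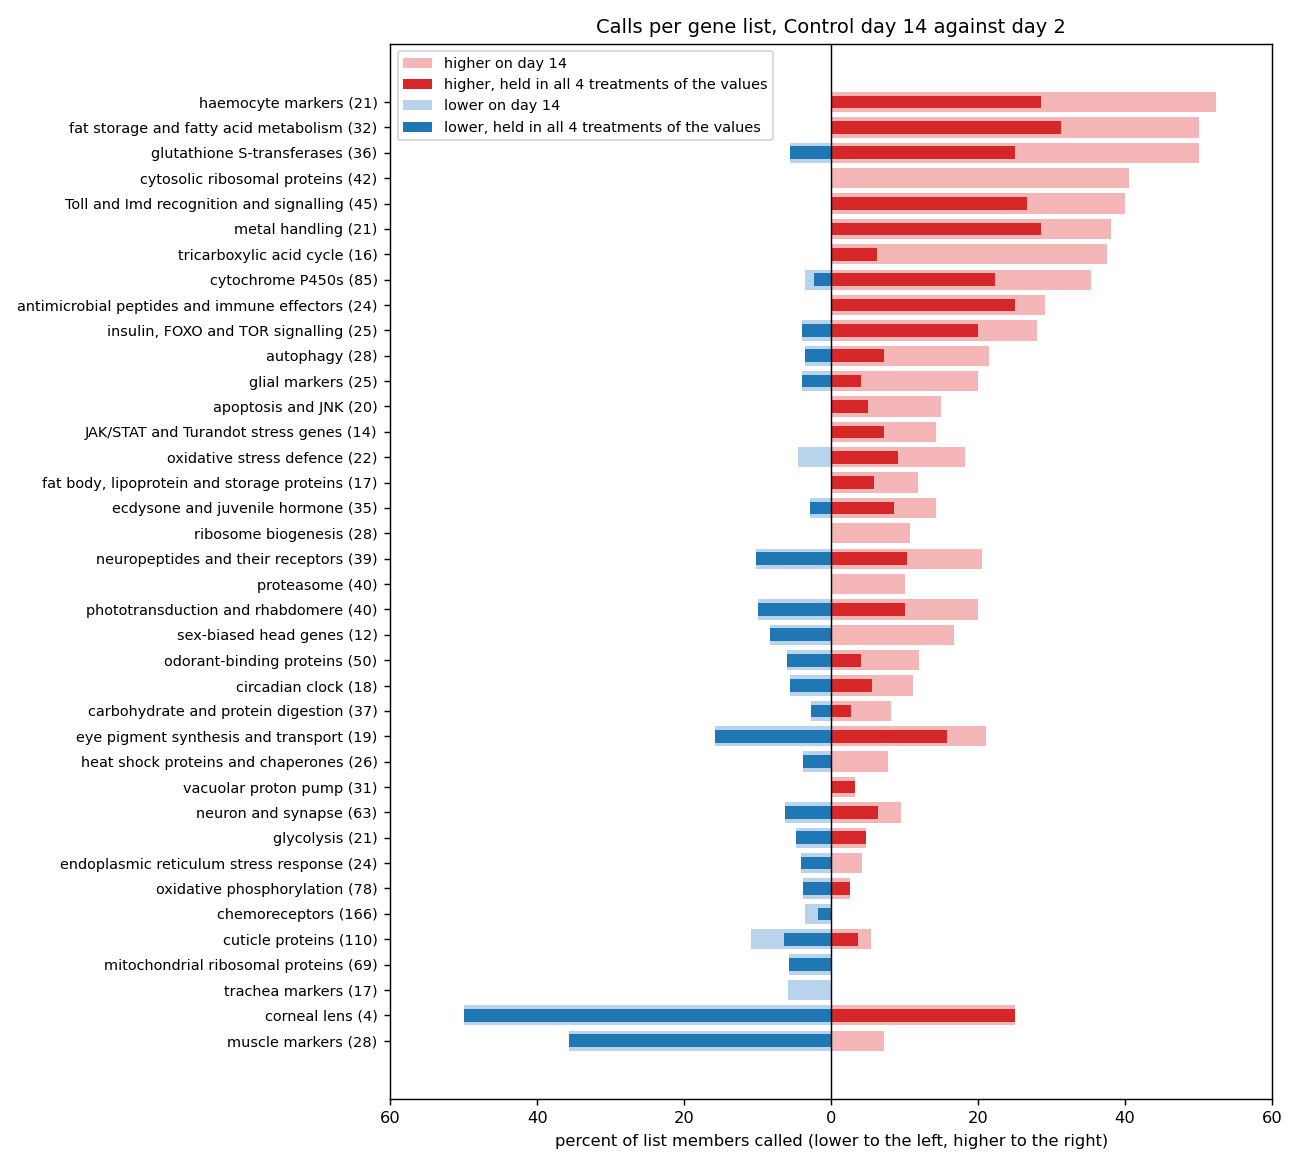
Share of the members of each gene list (y axis, with the number measured in brackets) that were called lower (left) or higher (right) on day 14, in percent (x axis). Pale bars are calls on the deposited values and dark bars those held in all 4 treatments of the values. Among all genes the shares were 13.3% higher and 3.61% lower, and 5.78% and 2.8% held. The pale bar of the cytosolic ribosomal proteins has no dark part.

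The 3 transgenic lines aged through the same days. Their arrays had also entered the model behind the tests above, which estimates the spread from all groups. In them, 19.9% (Atro), 15.1% (A66QC) and 16.1% (A75QN) of probe sets were called between day 14 and day 2. Of the 1590 genes higher in Control, 1094 (68.8%) were also higher in Atro, 684 (43%) in A66QC and 759 (47.7%) in A75QN. These are 51.6%, 61.7% and 56.8% of the genes higher in each line. Of the 433 genes lower in Control, 292 (67.4%), 293 (67.7%) and 269 (62.1%) were also lower, which are 29.2%, 23.6% and 23.9% of the lines' lower genes. All 3 lines shared the call for 490 of the higher and 233 of the lower genes. Of the 692 higher and 335 lower genes that held, 324 and 219 were so shared. These overlaps are of calls on the deposited values, where the balance of higher and lower calls depended on scaling. The brighter 9384 probe sets had median changes of −0.0118 (A66QC), 0.0069 (A75QN), 0.0552 (Atro) and 0.0841 (Control). The part of scaling in the overlaps was not tested. The change in the line differed from that in Control for 1.41% of probe sets in Atro, 3.12% in A66QC and 2.86% in A75QN. These tests share the Control arrays with each other.

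Many of the changes described above had no detected difference in any line. The change of CG34227 was 2.01, 1.71 and 2.06 in Atro, A66QC and A75QN beside 2.11 in Control. Tsp42Ed changed by 1.41, 1.39 and 1.16, Ir68a by −1.31, −1.33 and −1.23, SIFa by −0.66, −0.76 and −0.68, and SERCA by −1.45, −1.42 and −1.58. Rel changed by 0.54, 0.69 and 0.60. The tests of these differences from Control did not pass, which does not show that the changes were equal.

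Other changes were larger, smaller or reversed in the lines that express Atrophin in the eye. retinin changed by −2.58, −3.07 and −4.26 in Atro, A66QC and A75QN beside −0.48 in Control. pkm, which fell by 0.29 ± 0.10 in Control, a call lost without any 1 of 4 arrays, changed by −1.56, −3.87 and −3.97 in the lines. Osi6, of the Osiris family of membrane proteins, rose in Control from 9.83, 9.54 and 9.97 to 10.64, 10.78 and 10.99 and changed by −0.82, −3.02 and −2.50 in the lines. Tsp (thrombospondin), a matrix protein, rose by 0.82 ± 0.10 in Control and changed by −0.14, −1.51 and −0.99. The rise of dmGlut was matched in Atro (1.69) and differed in A66QC (−0.34) and A75QN (0.22). That of Acp65Aa was 1.98, 0.53 and 0.16. Cpr72Ec, which changed by −3.80 in Control, changed in the lines by 0.59, −2.11 and −2.32. Arc1 rose by more in A66QC (2.39) and A75QN (2.60) than in Control. Each of these differences in A66QC and A75QN passed the test (adjusted p from limma's difference of changes, at most 0.00103).

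Among immune genes, grass rose in Control and had changes of −0.39 in A66QC and −0.20 in A75QN, and Drsl4 of −0.27 and −0.02. The 2 Bomanins BomS5 and BomT2 had changes of 0.72 and 0.78 in A66QC and 1.22 and 0.99 in A75QN, without a detected difference from Control. Drs changed by −1.20 in Atro and by 0.87 and 1.08 in the other lines, each with an SE of 0.76. Ilp5 changed by 0.21 in Atro and 0.13 in A66QC beside its fall in Control. fit, a fat body gene of the female head that signals protein intake, fell by 0.62 ± 0.18 in Control, a call lost without 1 of 4 arrays, and changed by 0.57, 1.13 and −0.41 in the lines. Gnmt, which consumes the methyl donor S-adenosylmethionine, read 9.79, 9.68 and 9.93 on day 2 and 9.68, 9.61 and 9.48 on day 14 in Control (adjusted p = 0.632) and changed by 0.30, 2.18 and 1.37 in the lines.

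**Figure D5:**
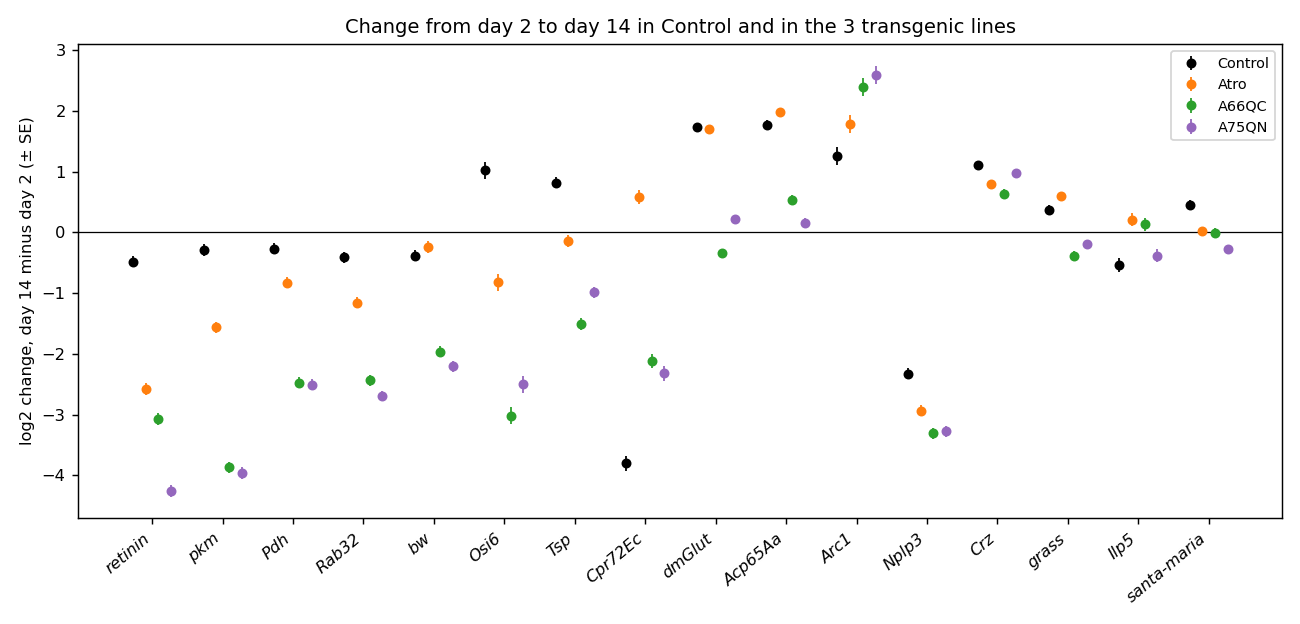
Log2 change from day 2 to day 14 (y axis) with its SE for 16 genes (x axis) in Control (black) and in the lines Atro, A66QC and A75QN. Points are fitted differences of 3 against 3 arrays. retinin and pkm lie at −0.48 and −0.29 in Control and between −1.56 and −4.26 in the lines, and Cpr72Ec lies lowest in Control.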

How the data were processed

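Head RNA of all 36 samples was hybridised to one-colour Affymetrix arrays. The values are log2 signals deposited by the authors, who used R 2.11.0 per the submitters' processing notes. Their background correction, summarization and normalization are not stated in the labels or files read here. Arrays have no read depth, so the number of arrays and the signal over background limit precision. Of 18952 probe sets, 183 controls were left out. The platform annotation gave 1 gene symbol for 13647 of the rest, more than 1 for 402, and no symbol for 4720. For each of 11982 genes, the probe set with the highest mean over all arrays stood for the gene, with no filter on low values.

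All arrays entered 1 model with a mean for each of 12 groups, fitted with limma 3.58.1 in R 4.3.3 (24 residual and 6.49 prior degrees of freedom) and checked on simulated data. P-values were adjusted over all tested probe sets by the Benjamini-Hochberg method. The change in a line minus the change in Control was tested in the same model. A group mean under the highest array median is called near background. Arrays of outlying spread are the 6 whose SD differed by 5% or more from the median SD in their group.

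Named were up to 12 largest rises and falls whose arrays did not overlap, from each list up to 6 members of smallest adjusted p, and up to 6 genes with the largest difference in change for each line. Of these, genes whose calls held were preferred in the text, and genes outside the rule are marked. Of 38 lists, those described are a choice. The members, lists and limits were chosen with earlier results of these data known. Alternatives were 2 other normalizations (quantile, cyclic loess), weights for arrays, a robust trended prior, a fit of brighter probe sets or of the compared arrays alone, a replicate block, a minimum change and leaving out arrays. No sequences were used.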

Additional observations from a re-analysis of the deposited data

Results flagged for a closer look

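The values here are the log2 change from day 2 to day 14 in a transgenic line minus that in Control, for genes named above whose difference passed an adjusted p of 0.05 in limma's test of the difference. The 67 such differences share the Control arrays. Without the arrays of outlying spread 58 of them still passed. The 9 lost were those of GstD9 in A66QC and A75QN, of lncRNA:CR32368, Tsf2, santa-maria and Crz in A66QC, of CG4000 and pinta in A75QN, and of Pdh in Atro. After quantile normalization 66 passed, and that of CG4000 in A75QN did not.

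retinin differed by −2.10 in Atro, −2.59 in A66QC and −3.78 in A75QN. The values for pkm were −1.27, −3.58 and −3.67, for Rab32 −0.75, −2.03 and −2.28, and for Pdh −0.56, −2.21 and −2.24. Cpr72Ec had positive values of 4.39, 1.69 and 1.48, since its fall was steepest in Control. bw differed by −1.58 in A66QC and −1.83 in A75QN, and st by −0.45 and −0.46. santa-maria differed by −0.44, −0.46 and −0.73 in the 3 lines and pinta by −0.43 in A75QN.

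For Osi6 the differences were −1.85, −4.04 and −3.53, and for Tsp −0.96, −2.33 and −1.81, in Atro, A66QC and A75QN. dmGlut differed by −2.07 in A66QC and −1.51 in A75QN, and Acp65Aa by −1.23 and −1.61 in the same lines. Arc1 had positive differences of 1.13 and 1.34 there, and Gnmt of 2.39 and 1.58. Spn47C differed by −0.80 and lncRNA:CR32368 by 1.56 in A66QC.

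Nplp3 differed by −0.60, −0.98 and −0.94, and CG4000 by −0.71, −1.004 and −0.57, in Atro, A66QC and A75QN. CG7214 differed by −1.27 in Atro and 0.74 in A75QN, CG4842 by 0.64 in Atro and CG3348 by 0.88 in A66QC. Control was near background for CG7214 on day 14 and for lncRNA:CR32368 on day 2, so the size of their differences cannot be read.

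In the immune and blood cell lists, Drsl4 differed by −1.23 in A66QC and −0.99 in A75QN, and grass by −0.76 and −0.57. PPO1 and PPO2 differed by 0.83 and 0.54 in Atro. GstD9 differed by −0.54 in A66QC and −0.53 in A75QN, and Tsf2 by −0.37 in A66QC. Obp19c differed by −0.44 in A66QC and −0.41 in A75QN.

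Among peptides and metabolic genes, Ilp5 differed by 0.75 in Atro and 0.67 in A66QC, and fit by 1.19 and 1.75 in the same lines. Crz differed by −0.47 in A66QC, CCHa2 by −0.63 in A75QN and Glyp by −0.61 in A75QN. Groups of 3 arrays are too small for a test of single outlying arrays.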

How the results depend on the processing

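Of the 117 genes named, 113 were called in Control and 111 held. Genes that held were preferred in naming them, so this stability was partly selected for. No called gene reversed its direction under the 14 alternatives for Control in which it had a value. Direction was not checked for the genes not called. Array weights and the replicate block changed no call. Probe sets called higher in Control numbered 857 without the arrays of outlying spread, 44 at a change of at least 1, and 917 to 1921 when 1 array was left out. They fell to 917 without replicate 2 of day 2 and to 976 without replicate 2 of day 14. Probe sets called lower numbered 1516 after quantile normalization, 1643 after cyclic loess, 1018 with array weights, 371 with the compared arrays alone, 26 at a change of at least 1, and 405 to 521 when 1 array was left out. The cause of these shifts was not tested.

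Array weights were very uneven, at 22.9 for Atro day 0 replicate 1, 19.0 for Atro day 2 replicate 3 and 3.1e-06 for A66QC day 2 replicate 2. Counts with array weights in these lines thus lean on few arrays. Calls within a line came to 9204 with array weights and 119 at a change of at least 1 in Atro (2861 to 3853 with 1 array left out). In A66QC they came to 4472 after quantile normalization, 4423 after cyclic loess, 1514 with array weights and 142 at a change of at least 1 (2113 to 2906), and in A75QN to 4774, 4733 and, at a change of at least 1, 126 (2205 to 3140). For Atro against Control, differences in change numbered 868 after quantile normalization, 901 after cyclic loess, 1883 with array weights and 24 at a minimum of 1. With 1 array left out they ranged from 171, without Control day 2 replicate 3, to 259. For A66QC they numbered 929, 894, 239 and 69 under the same settings, and 337 without the arrays of outlying spread. With 1 array left out the range was 310, without A66QC day 2 replicate 3, to 1102, without A66QC day 2 replicate 1. It was 341 and 338 without Control replicate 2 of day 2 or of day 14. For A75QN they numbered 1119, 1091, 878 and 48. With 1 array left out the range was 277, without Control day 14 replicate 2, to 689, with 302 without Control day 2 replicate 2, 317 without A75QN day 2 replicate 2 and 352 without A75QN day 14 replicate 3.

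For equal replicate numbers on the 2 days, the deviations from the group means correlated at −0.33, −0.60 and −0.25. Replicate 2 was the narrowest array on day 2 and the widest on day 14, and array spread enters these values. They therefore cannot tell whether the days were paired. With the replicate number as a block, 2049 probe sets were higher and 648 lower in Control. Where a group lost an array, the spread was pooled over all groups. Signal near background limits the dim genes.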
